A study of Mus musculus with 10 samples.

Results

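Fgf23 and 4 genes whose products set the production, glycosylation, phosphorylation and cleavage of its hormone, Phex, Galnt3, Fam20c and Furin, were examined in femur RNA. They were taken by gene symbol, and all 5 were found among the 27179 genes of the deposited table. The femurs came from 10 mice aged 3 or 4 weeks, the age of each mouse not being given. Of these, 5 carried 1 Fgfr1 allele with the substitution N330I (Fgfr1+/N330I, mutants below), and their 5 littermates were wild type (WT). By their titles, 3 mutant and 3 WT mice were female, and 2 mutant and 2 WT mice were male. No other allele or treatment is labelled. The series title ties the allele to osteoglophonic dysplasia, a disorder of bone growth, and to phosphate control by Fgf23.

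FGF23 is a hormone made mainly by osteocytes and osteoblasts. It acts on the kidney through FGF receptors and the coreceptor klotho, where it lowers phosphate reabsorption and the synthesis of active vitamin D. Intact FGF23 is the active form, and cleavage by furin-type proprotein convertases inactivates it. GALNT3 adds a sugar next to the cleavage site and protects the hormone, whereas phosphorylation by FAM20C lowers that glycosylation and favours cleavage. PHEX is a membrane endopeptidase of osteocytes and osteoblasts whose loss raises FGF23 in X-linked hypophosphatemia.

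The actions of GALNT3, FAM20C and furin meet on a short stretch of Fgf23, which is shown because 3 of the 4 regulator genes act on it. It lies in exon 3 of 3, in coding sequence, at chr6:127080218-127080298 on the plus strand (GRCm38, the assembly behind mm10; GENCODE M21 transcript). The capitals mark codons 176 to 182 of 251.
Fgf23 cleavage site coding sequence: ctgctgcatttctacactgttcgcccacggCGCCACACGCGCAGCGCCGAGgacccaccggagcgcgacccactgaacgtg
Codons 176 and 179 encode the arginines that bound the convertase motif, arginine and arginine with any 2 residues between. Codon 178 encodes a threonine, the residue that GALNT3 glycosylates in the human protein. Codon 180 encodes a serine with a glutamate at codon 182, the pattern that FAM20C recognises, and this serine is its target in the human protein. Of 4 matches to the convertase motif in the translated Fgf23 sequence, 1 was followed directly by the FAM20C pattern.

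Values were DESeq2-normalized gene counts, with estimated depths of 18.1 M to 30.6 M reads per library, and some libraries differed from the rest. Rn45s, which encodes precursor ribosomal RNA, made up 28.8% of female WT 3 and at most 0.428% of any other library, and a single read in female WT 3 was worth 2.19 normalized counts against 0.845 to 1.11 elsewhere. In male WT 1, genes with long exon sequence were relatively low, with a slope of -1.62 log2 per 10-fold gain in exon bases, where the other libraries had -0.48 to 0.45. The library labelled male mutant 2 held 7972 normalized counts of Xist and 4 of the Y-linked gene Ddx3y, against its labelled sex. Library names change with labelled sex, so labelled sex and name series cannot be told apart. Osteoblast markers made up 0.641% to 6.21% of the counts outside Rn45s, osteocyte markers 0.0683% to 0.152% and macrophage markers 0.227% to 0.385%. Erythroid, neutrophil and B cell markers each stayed at or below 0.000241%. At that low level, the summed erythroid markers were nonetheless separated by genotype, at 6 to 14 normalized counts in mutants against 23 to 73 in WT mice, and their part in the results was not tested.

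Fgf23 (chromosome 6, 127072902 to 127081408, plus strand, mm10) was the lowest of the 5 genes and was higher in the mutants. It was measured at 2, 4 and 11 normalized counts in female mutants 1, 2 and 3, and at 8 and 3 in male mutants 1 and 2. In WT mice it was at 1, 0 and 0 in females 1, 2 and 3 and at 2 in each of the 2 males. The highest values were those of female mutant 3 and male mutant 1, and the groups met at 2, where the lowest mutant and both male WT libraries stood. Mutants had a mean of 5.6 ± 3.78 and WT mice one of 1 ± 1 (SD, n = 5 per genotype). Per kilobase of exon, these levels were 3.09 ± 2.08 for mutants and 0.551 ± 0.551 for WT mice (SD, n = 5 per genotype).

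The difference in Fgf23, as log2(normalized count + 1), was 1.70 ± 0.49 (SE). Permuting genotype within labelled sex gave a two-sided exact p of 0.0167, the smallest that the 120 arrangements allow. With 0.5 or 5 in place of the added 1 the difference was 2.14 or 0.77, since the values are near zero. Behind it lay an estimated 30 reads in all mutant libraries together and 5 in all WT libraries together. The limit that a count of 0 allows (3 reads, counting error alone) was 2.61 normalized counts for female WT 2. For female WT 3 it was 6.58, which is above the values of 3 of the 5 mutants. Without female WT 3 and male WT 1 the exact permutation p was 0.0667. In a fit across all genes without a filter on low values, Fgf23 had a limma adjusted p of 0.524 (unadjusted p of 0.00454).

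**Figure D1:**
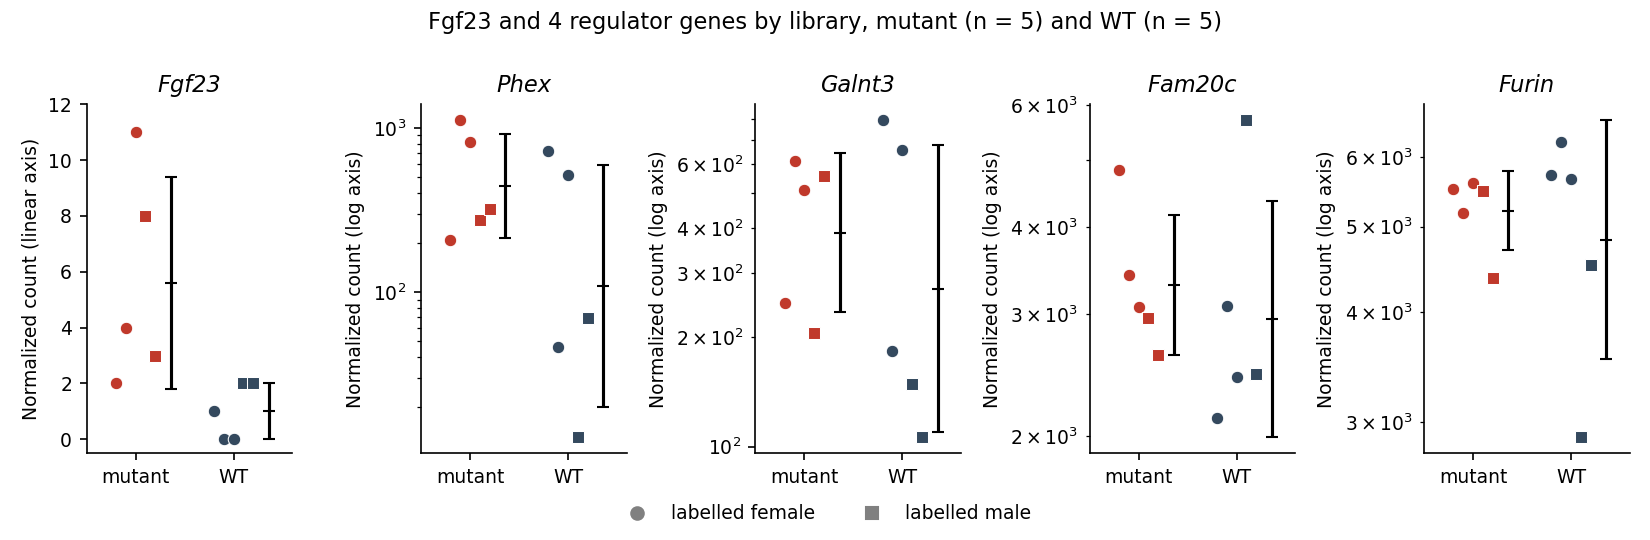
Normalized counts of Fgf23 (linear axis), Phex, Galnt3, Fam20c and Furin (log axes) in each library, with circles for labelled females and squares for labelled males. Bars give the mean ± SD (n = 5), taken on the log scale for all but Fgf23. Fgf23 lies at 2 to 11 in mutants and 0 to 2 in WT mice, so its groups meet at 2, and the groups overlap for the other genes.

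Across the whole table, limma (log2 values, labelled sex as covariate, Benjamini-Hochberg adjustment) called 0 of 14362 genes for genotype at an adjusted p under 0.05, a background of 0%, and 907 genes, or 6.32%, had an unadjusted p under 0.05. Of the 5 genes, 4 passed the filter of 10 normalized counts in 5 libraries, all but Fgf23. Of these 4, 0 were called and 1, Phex, had an unadjusted p under 0.05. All 4 estimates were above 0, as were 48.2% of those of all tested genes. Mutant and WT values overlapped or met for all 5, where 0.829% of tested genes had groups that did not overlap.

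Phex (chromosome X, on the minus strand at 157162075 to 157415286, mm10) varied more between libraries than any other of the 4 tested regulators. It stood at 207, 1116 and 824 normalized counts in female mutants 1, 2 and 3, and at 276 and 322 in male mutants 1 and 2. In WT mice it was at 729, 46 and 518 in females 1, 2 and 3, and at 13 and 69 in males 1 and 2. Female WT 1 and female WT 3 thus lay within the mutant range, and the other 3 WT libraries lay below every mutant.

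Mean Phex was 549 ± 400 for mutants and 275 ± 327 for WT mice (SD, n = 5 per genotype). The log2 difference was 1.99 ± 0.86 (SE; 95% interval 0.06 to 3.92), and it did not pass over all genes (limma adjusted p = 0.783, unadjusted p = 0.0446). The SD of its log2 values over the 10 libraries was 2.04, against a median of 0.36 for all tested genes, and 0.362% of tested genes had a larger one. Its lowest value was in male WT 1, the library low in genes with long exon sequence, and 90.1% of tested genes had fewer exon bases than the 6265 of Phex. Without male WT 1 the difference was 1.44, and the part of exon length in it was not tested.

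Phex followed Dmp1, which encodes a matrix phosphoprotein of osteocytes that also restrains FGF23, more closely than it followed any other of 14361 genes. Their profiles, each centred on its mean, differed by a root mean square of 0.45 log2 over the 10 libraries, against a median of 1.96 for all genes. The genes next in likeness were Bmp3, a BMP family member of bone, at 0.61 and Bmp8a at 0.64. These distances are descriptions, and the libraries that set them are those listed above. Dmp1 ran from 1051 to 6726 normalized counts among mutants and from 44 to 3114 among WT mice, with 44 in male WT 1, 147 in male WT 2 and 181 in female WT 2. The same 3 WT libraries were therefore lowest for both genes.

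The osteocyte markers were then set beside Phex. The mean log2 value of the 10 listed markers was 9.19 ± 0.76 for mutants (8.21 to 9.97) and 8.16 ± 1.26 for WT mice (6.90 to 9.82; SD, n = 5 per genotype). The list holds Dmp1 and Mepe but none of the 5 genes, and no marker was at 0 throughout. Its summed level ranged over 30909 to 37796 normalized counts for mutants and 20689 to 36386 for WT mice. This sum was not ordered like Phex, male WT 2 having 35217 and female mutant 2 having 35108. Dmp1, Mepe and Sost held 44, 4 and 0 of the 20689 in male WT 1, so the sum there came mostly from other listed markers. Osteoclast markers summed to 62145 to 335914 for mutants and 33327 to 100622 for WT mice. The mutant maximum was male mutant 1 alone, and the next highest mutant, male mutant 2, was at 101409. The part of osteoclast markers in these results was not tested. With the mean log2 value as a covariate the Phex difference was 0.03 ± 0.44 (limma adjusted p = 1). Without Dmp1, Mepe and Sost, the mean of the other 7 markers was 10.31 ± 0.34 for mutants (9.80 to 10.72) and 9.66 ± 0.69 for WT mice (8.75 to 10.46). With this mean as covariate, a fit added after the data were seen, the Phex difference was -0.18 ± 0.52 (limma adjusted p = 0.998). Both marker means were themselves higher on average in mutants, and that of all 10 markers includes Dmp1, the nearest profile of Phex. These fits therefore cannot tell genotype from marker level, and the part of osteocyte content in the Phex difference was not tested. In RNA of a whole bone, fewer cells of a type and less RNA per cell cannot be told apart.

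The order of Fgf23 across the libraries rests on few reads, and in some libraries it departed from that of Dmp1. Female WT 1 had the third highest Dmp1 of the 10 libraries, 3114, and the highest level of Sost, an osteocyte Wnt inhibitor, 96, with 1 normalized count of Fgf23. Male mutant 1 had 1051 of Dmp1 and 0 of Sost, with 8 of Fgf23. The summed osteocyte markers did not order these libraries as Dmp1 did, at 36386 in female WT 1 and 37061 in male mutant 1. The mean log2 value of the markers did, at 9.82 and 8.21. In other libraries Fgf23 went with Dmp1, as in female mutant 3 (4346 of Dmp1, 11 of Fgf23) and female WT 2 (181 and 0). The Fgf23 difference with the osteocyte covariate, in the fit without a filter, was 1.43 ± 0.61 (limma adjusted p = 0.603, unadjusted p = 0.0424), against 1.70 ± 0.47 without it. Dmp1 and Sost are given here as osteocyte references.

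**Figure D2:**
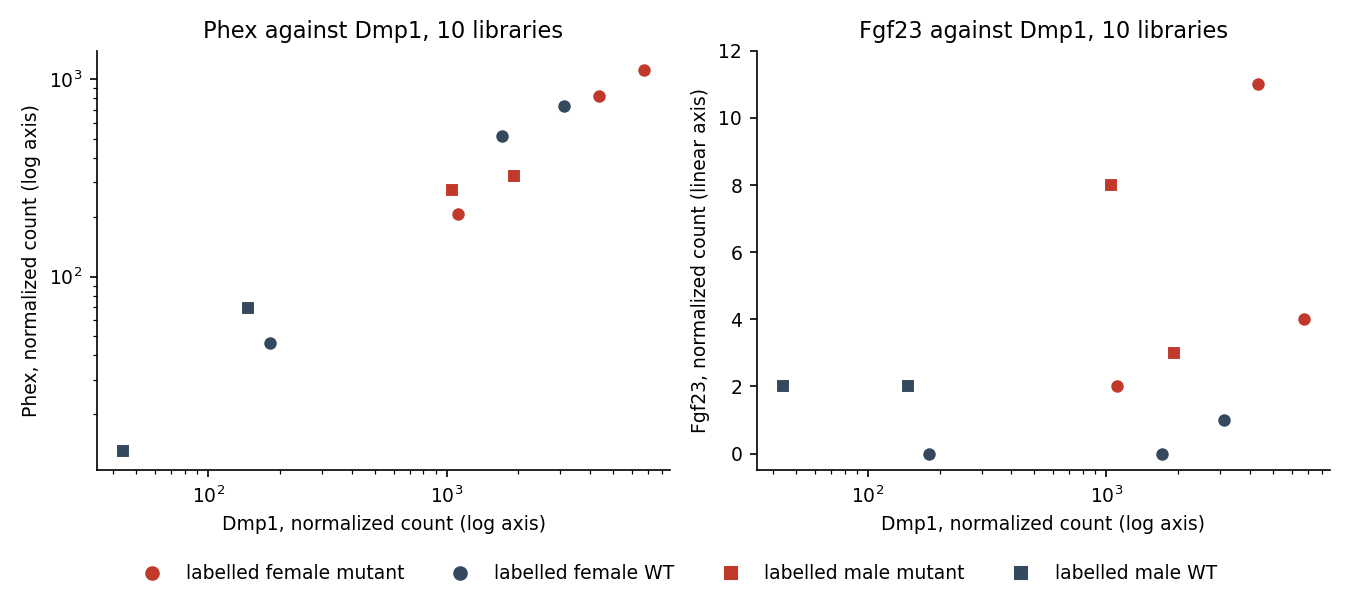
Phex (left, log axis) and Fgf23 (right, linear axis) against Dmp1 (log axes) in normalized counts, one point per library. Phex runs from 13 at a Dmp1 of 44 to 1116 at a Dmp1 of 6726. Fgf23 is at 1 in female WT 1 with a Dmp1 of 3114 and at 8 in male mutant 1 with a Dmp1 of 1051. It is at 11 in female mutant 3 with a Dmp1 of 4346.

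Galnt3 (chromosome 2, 66082766 to 66124793, minus strand) did not differ detectably with genotype. It was at 248, 610 and 508 normalized counts in female mutants 1, 2 and 3, and at 205 and 556 in male mutants 1 and 2. In WT mice it was at 792, 183 and 654 in females 1, 2 and 3, and at 149 and 106 in males 1 and 2. The WT libraries thus held both the 2 highest values and the 3 lowest, on either side of all mutants.

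Mean Galnt3 was 425 ± 186 for mutants and 377 ± 321 for WT mice (SD, n = 5 per genotype), and the log2 difference was 0.51 ± 0.51 (95% interval -0.62 to 1.64; limma adjusted p = 0.821). The sign turned with the osteocyte markers as covariate, where it was -0.57 ± 0.33 (limma adjusted p = 0.811). Its nearest profiles were those of Rerg at 0.21 log2, Phospho1, a phosphatase gene of matrix mineralization, at 0.23, and Tmie at 0.28, against a median of 1.03.

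Fam20c (chromosome 5, 138755081 to 138810063, plus strand) was abundant and did not pass. It was at 4830, 3417 and 3072 normalized counts in female mutants 1, 2 and 3, and at 2959 and 2616 in male mutants 1 and 2. In WT mice it was at 2121, 3080 and 2430 in females 1, 2 and 3, and at 5706 and 2455 in males 1 and 2. Male WT 1 was the highest of all libraries, and the other 4 WT libraries lay at 2121 to 3080.

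Mean Fam20c was 3378.8 ± 860 for mutants and 3158.4 ± 1466.1 for WT mice (SD, n = 5 per genotype). The log2 difference was 0.16 ± 0.27 (95% interval -0.45 to 0.77; limma adjusted p = 0.881). Without male WT 1 it was 0.44 ± 0.16 (limma adjusted p = 0.639, unadjusted p = 0.0265). With all osteocyte markers as covariate it was 0.60 ± 0.28 (limma adjusted p = 0.644, unadjusted p = 0.0599). With the 7 markers it was 0.75 ± 0.24 (limma adjusted p = 0.668, unadjusted p = 0.0124). Its 3001 exon bases were close to the median of 2825 for tested genes. Its nearest profiles were those of Nxpe5 at 0.15 log2, Tmem221 at 0.18 and Igsf6 at 0.19, against a median of 0.53. Those of Phex and Dmp1 were at 2.19 and 2.44, but these genes vary widely, and Phex had a median distance of 1.96 from all genes.

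Furin (chromosome 7, 80389194 to 80405431, minus strand), the convertase gene, varied least. It was at 5522, 5182 and 5604 normalized counts in female mutants 1, 2 and 3, and at 5488 and 4375 in male mutants 1 and 2. In WT mice it was at 5721, 6244 and 5657 in females 1, 2 and 3, and at 2885 and 4520 in males 1 and 2. All female WT libraries lay above all mutants, and male WT 1 lay below every other library.

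Mean Furin was 5234.2 ± 506 for mutants and 5005.4 ± 1341.9 for WT mice (SD, n = 5 per genotype), and the log2 difference was 0.11 ± 0.15 (95% interval -0.23 to 0.45; limma adjusted p = 0.865). Without male WT 1, the library low in genes with long exon sequence, it was -0.04 ± 0.09. Of tested genes, 76.1% had fewer exon bases than the 4399 of Furin, and the part of exon length was not tested. The SD of its log2 values was 0.32, below the median of 0.36 for all tested genes, and the nearest profiles were those of Inf2 at 0.06, Atxn7l3 at 0.08 and Chpf2 at 0.09.

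**Figure D3:**
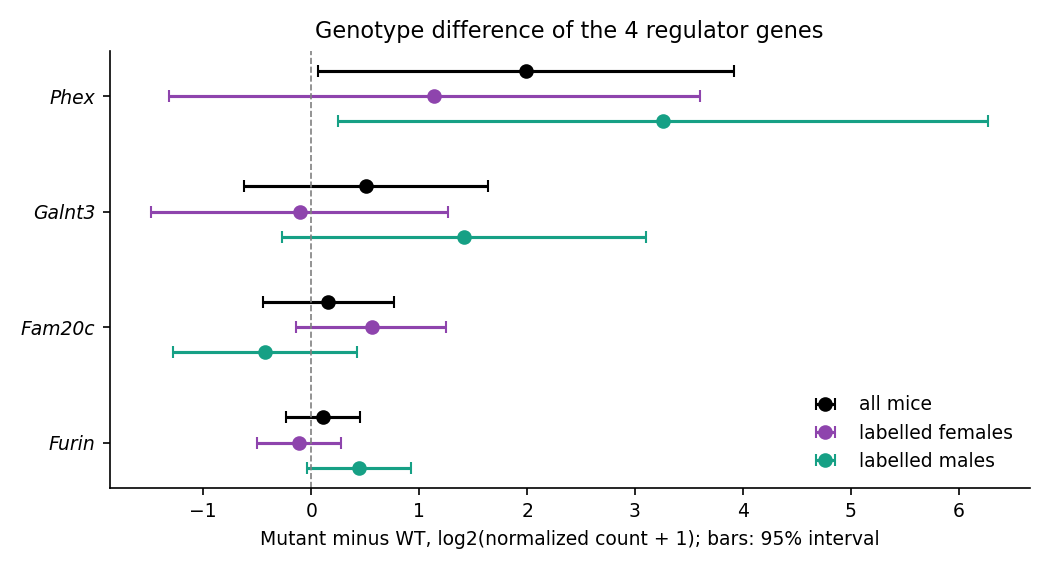
Mutant minus WT differences of Phex, Galnt3, Fam20c and Furin on the log2(normalized count + 1) scale, with 95% intervals from limma, for all mice, labelled females and labelled males. The Phex estimates are 1.99, 1.14 and 3.26, and the intervals of Galnt3, Fam20c and Furin include 0 in each of the 3 comparisons.

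The genotype differences were then compared between labelled sexes. Phex differed by 1.14 ± 1.08 in females and 3.26 ± 1.33 in males, and Galnt3 by -0.10 ± 0.61 and 1.42 ± 0.74. Fam20c differed by 0.56 ± 0.31 in females and -0.43 ± 0.37 in males, and Furin by -0.11 ± 0.17 and 0.44 ± 0.21. None of these 8 values passed (limma adjusted p of 0.563 to 1).

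The difference between the sexes, male minus female, was 2.11 ± 1.71 for Phex, 1.52 ± 0.96 for Galnt3, -0.99 ± 0.48 for Fam20c and 0.55 ± 0.27 for Furin, each with a limma adjusted p of 0.801. Of all 14362 genes 0 passed this test, and 563, or 3.92%, had an unadjusted p under 0.05. Without male WT 2, which leaves male WT 1 as the only male WT library and assumes that it varies like the other groups, Fam20c at -1.59 (limma adjusted p = 0.0238) and Furin at 0.88 (limma adjusted p = 0.0205) passed together with 2674 genes in all. Without male WT 1 they were -0.38 and 0.23. The male mutants include the library whose Xist and Ddx3y go against its label. Without it the sex differences were 2.00 ± 2.07 for Phex, 0.80 ± 1.03 for Galnt3, -0.90 ± 0.58 for Fam20c and 0.71 ± 0.31 for Furin (limma adjusted p = 0.967 each). For Fgf23 the difference was 2.16 ± 0.67 in females and 1.00 ± 0.58 in males, at exact permutation p values of 0.1 and 0.333, the smallest that these groups allow.

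Levels per kilobase of exon ordered the 5 genes as Furin, Fam20c, Galnt3, Phex and Fgf23, with means over the 10 libraries of 1163.9 ± 219, 1089.2 ± 380, 109 ± 67.5, 65.8 ± 59.6 and 1.82 ± 1.96 normalized counts per kilobase (SD). Furin and Fam20c were within their spread of each other, as were Galnt3 and Phex, and Fgf23 lay far below. Within their families the ranks differed. Fam20c was the highest of the 3 FAM20 genes, at 54.1% of their summed level, ahead of Fam20a, which encodes a pseudokinase partner of FAM20C, and Fam20b, a xylose kinase gene.

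Furin had rank 2 among 9 proprotein convertase genes, at 36.5% of their sum, after Mbtps1, the site-1 protease gene, at 40.6%. Pcsk6 followed at 338, Pcsk7 at 253 and Pcsk5 at 109 normalized counts per kilobase. Galnt3 had rank 9 among 19 GalNAc transferase genes, at 2.51% of the sum, below Galnt2 at 34.1% and Galnt1 at 19.3%. Phex had rank 4 among 7 genes of the M13 endopeptidase family, at 2.35%, below Mme, Ece1 and Ece2.

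**Figure D4:**
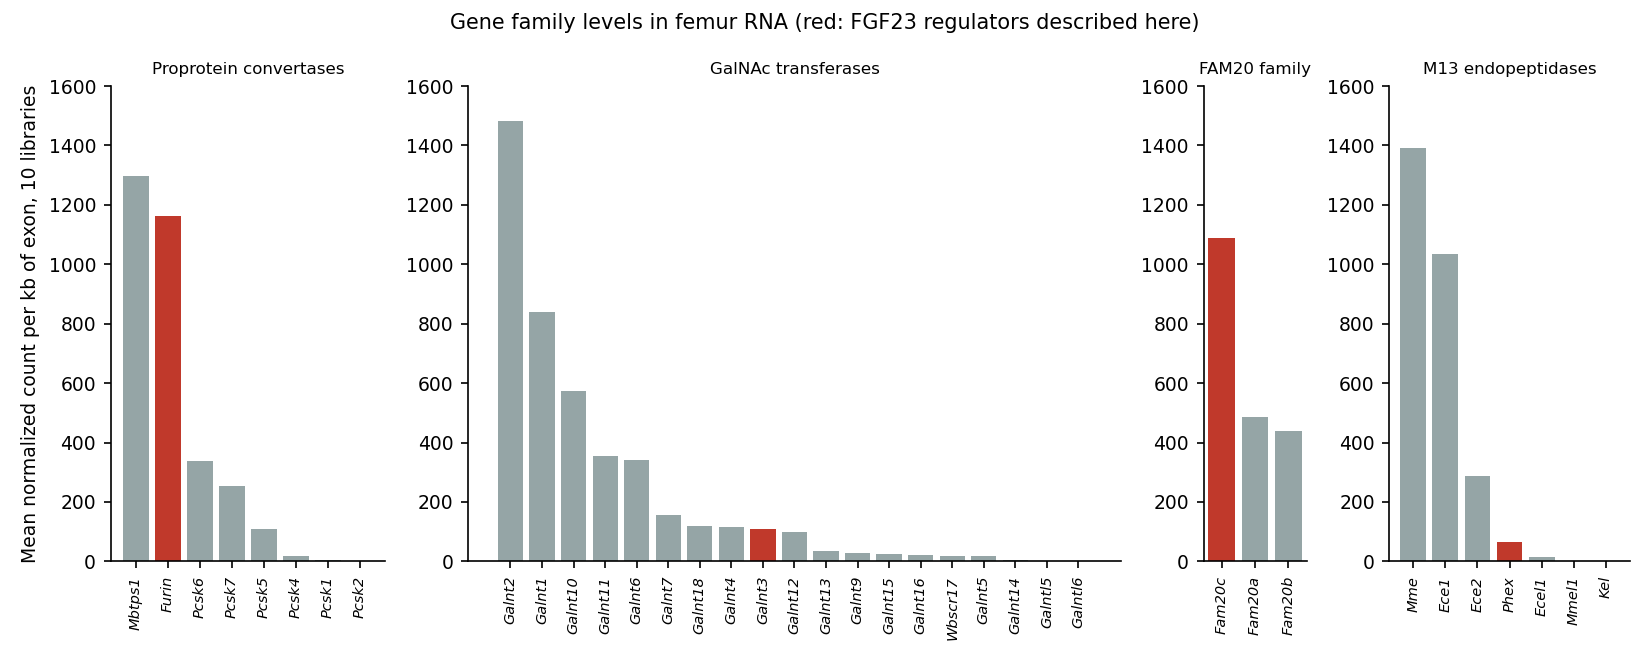
Mean normalized counts per kilobase of exon over the 10 libraries for the proprotein convertase, GalNAc transferase, FAM20 and M13 endopeptidase genes, with Furin, Galnt3, Fam20c and Phex in red and 1 of the 9 convertase genes not drawn. Fam20c is the highest of 3 and Furin has rank 2 of 9, whereas Galnt3 has rank 9 of 19 and Phex rank 4 of 7.

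No relative of the 4 regulators passed over all genes. Among 15 tested GalNAc transferase genes 6 had estimates above 0, with a median log2 difference of -0.11 beside -0.01 over all tested genes. The smallest p belonged to Galnt16 (-0.98 ± 0.52) and Galnt10 (-0.26 ± 0.16). Among 6 tested convertases 4 were above 0, with a median of 0.13. Of these, Mbtps1 had 0.09 ± 0.09, Pcsk4 0.23 ± 0.24 and Pcsk7 -0.03 ± 0.08. Fam20a had -0.39 ± 0.32 and Fam20b 0.08 ± 0.08. Of 4 tested M13 genes, Ecel1 had mutants at 38 to 59 normalized counts and WT mice at 4 to 53 (1.36 ± 0.48, limma adjusted p = 0.71, unadjusted p = 0.0177), and Mme at 0.34 ± 0.37.

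Other regulators of FGF23 production had estimates in both directions. Of 22 listed genes, 18 were tested, 10 had estimates above 0 and the median was 0.01. Of these, 0 passed and 1, Dmp1 (2.66 ± 0.87, limma adjusted p = 0.683), had an unadjusted p under 0.05, where 3.69% of all genes had one as higher and 2.62% as lower. Mepe, a matrix phosphoglycoprotein gene of osteocytes, had 2.51 ± 1.15, with mutants at 10 to 193 normalized counts and WT mice at 0 to 107. Orai1, a calcium channel gene, had -0.23 ± 0.11 and Fgf2 0.61 ± 0.31. Of the phosphoproteins of bone that FAM20C modifies, Dmp1 and Mepe were above 0, and Spp1 (-0.13 ± 0.29) and Ibsp (-0.27 ± 0.62) below, all short of the threshold.

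The receptors for FGF23 were also measured. Fgfr1, the mutated gene, ran from 8856 to 12990 normalized counts among mutants and from 3861 to 11326 among WT mice. Its difference was 0.52 ± 0.23 (limma adjusted p = 0.783, unadjusted p = 0.046), and gene counts do not separate its alleles. The lowest WT value was that of male WT 1, the library low in genes with long exon sequence, and the next was 7767 in male WT 2. Fgfr3 had -0.86 ± 0.62 and Fgfr2 -0.26 ± 0.44. Kl, the klotho gene, named after its values were seen, was at 0 in all 10 libraries, which allows up to 2.54 to 6.58 normalized counts per library (3 reads). Of the other endocrine FGF genes, Fgf21 lay at 35 to 102 in mutants and 33 to 109 in WT mice (0.23 ± 0.37), and Fgf15, also named after its values were seen, was at 0 throughout.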

How the data were processed

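Pulverized femurs of 10 mice gave TRIzol RNA, and libraries were made after ribosomal RNA removal, per the labels' protocols. The submitters' processing notes name STAR 2.5.2b, DESeq2 1.14.1 and mm10; how reads were counted, strand setting included, was not given in the sources used here. Each deposited score is a DESeq2-normalized gene count, per the file headers, and was rounded after scaling, from its values. Since not every library allowed whole reads to be worked out, no count test was run. The value of 1 read was estimated from whole numbers skipped or doubled up to 150.

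The 14362 genes that reached 10 normalized counts in at least 5 libraries were fitted as log2(normalized count + 1) in limma 3.58.1 (R 4.3.3) with labelled sex as covariate, a mean-variance trend and robust moderation, and p-values were adjusted by Benjamini-Hochberg. Such folds understate the change of low genes. Fgf23 was tested by exact permutation. On simulated data with 14362 genes the genotype fit recovered 63% of 100 genes changed by 1 log2 and 88% of 100 changed by 2 log2, and 5.03% of its calls were false. The simulated noise was independent for each gene and library, and the largest SDs were capped. It held none of the library differences described above, so these shares need not hold for the real libraries. Groups came from sample titles, each mouse giving 1 library; no replicates were copies (at most 1.12% equal values). None of the 5 genes overlapped exons of another listed gene.

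The members, gene lists and tests were chosen with earlier results of these data known. Named were the 5 genes, up to 4 genes of each list with the smallest p, the 3 nearest profiles of each tested gene, and Dmp1, Mepe, Sost and Rn45s. Outside this rule, the most abundant genes of the convertase and GalNAc transferase families, the genes at 0, Xist and Ddx3y were named after their values were seen; 1 convertase gene that the rule names is not reported here.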

Additional observations from a re-analysis of the deposited data

Results flagged for a closer look

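Fam20c in male WT 1 stood apart from the other 4 WT mice, at 5706 normalized counts against 2121 to 3080. The gap to the next library was 0.732 of the range of the WT group, above the 95% critical value of 0.71 for 5 samples. In all, 10 groups were looked at, and chance sets apart a sample in about 1 of 20. Male WT 1 is also the library that is low in genes with long exon sequence; the part of this in the Fam20c value was not tested.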

How the results depend on the processing

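Fgf23 stayed higher in mutants in all 22 alternatives, and its exact permutation p was under 0.05 in 15 of them. That p is for 1 gene and is not adjusted, whereas the other 4 genes were judged by a limma p adjusted over all genes. In the other 7 it was 1.70 with the replicate block, whose 32 arrangements allow no exact permutation p below 0.0625, 2.16 in females alone, 1.00 in males alone, and, in fits added after the data were seen, 1.64 without female WT 3 and male WT 1, 1.88 when male mutant 2 as labelled was left out too (exact permutation p = 0.1), and 1.70 or, with osteocyte markers, 1.43 in limma without a filter. Leaving out each library gave 1.34 to 1.99 for Fgf23 (exact permutation p of 0.0167 to 0.0333), 1.43 to 2.51 for Phex, 0.15 to 0.81 for Galnt3, 0.01 to 0.44 for Fam20c and -0.04 to 0.16 for Furin. It gave 0 genes called for genotype each time, and sex differences of 0.95 to 3.35 for Phex, 0.80 to 2.24 for Galnt3, -1.59 to -0.38 for Fam20c and 0.23 to 0.88 for Furin, with 0 genes called for the sex difference except 2674 without male WT 2 and 1 each without female WT 2 or male mutant 1. Signs turned, with the 7 osteocyte markers other than Dmp1, Mepe and Sost, for Phex (-0.18), Galnt3 (-0.46) and Furin (-0.00), for Galnt3 with all osteocyte markers (-0.57) and in females (-0.10), for Fam20c in males (-0.43), and for Furin with array weights (-0.08), in females (-0.11), without male WT 1 (-0.04), without it and female WT 3 (-0.05) and without all 3 libraries (-0.01); the cause was not tested. With array weights 11 genes were called, none of them among the 4 tested here. Deviations of same-numbered mice correlated at -0.32 to 0.22. Centring within small groups partly fixes these values, so they do not settle whether title numbers pair the mice. The replicate block gave 0 calls and changed no call of the 4 tested genes. Planned count tests were not run, since whole reads could not be recovered.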
